A study of Homo sapiens with 60 samples.

Results

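The 8 genes described here are the aryl hydrocarbon receptor AHR, its partner ARNT, the repressors AHRR and TIPARP, and the target genes CYP1A1, CYP1A2, CYP1B1 and ALDH3A1. They were taken by name from the 60675 genes of the table, whose gene IDs were matched to symbols, and their levels were followed over all 20 treatment groups. Their transcripts were read by RNA-seq in the HepG2 line, an established human hepatocellular carcinoma line from which every sample comes. Cells were harvested 24 h after treatment, with 3 libraries in each group. The treated groups were wortmannin at 10 µM, an inhibitor of phosphoinositide 3-kinases that served as positive control, and water extracts of 6 herbs at 3 doses each. Polygalae Radix was given at 18, 90 and 450 µg/mL. Aucklandiae Radix, Zizyphi Semen, Longan Arillus, Schisandrae Fructus, and Liriopis seu Ophiopogonis Tuber were each given at 20, 100 and 500 µg/mL. The reference was the DMSO vehicle, which is 0.1% DMSO in the sample labels and 2% DMSO in the series' design text. No DMSO percentage was taken from the labels of the treated groups, so solvent and treatment may not be told apart against the vehicle. The design text lowers the top dose of an extract to its IC20 where this lies under the common top dose.

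AHR is a ligand-activated transcription factor that waits in the cytosol in a complex with the chaperone HSP90. When a planar aromatic ligand such as a dioxin, a polycyclic hydrocarbon or a plant-derived indole or flavonoid binds, AHR moves into the nucleus, pairs with ARNT and binds the xenobiotic response element, whose core is GCGTG. In liver cells CYP1A1 is the classical readout of this step: it encodes a cytochrome P450 that oxidises polycyclic aromatic compounds. AHRR competes with AHR for ARNT and TIPARP is an ADP-ribosyltransferase that acts on AHR, so that both close feedback loops on the receptor.

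CYP1A1 and CYP1A2 lie head to head, 23.2 kb apart, on chromosome 15. The stretches around the start sites of 4 of the genes are shown, with the receptor's core sequence marked. They come from RefSeq on GRCh38.p14, run from 250 bases before to 50 bases after a start site, and are written 5′ to 3′ on the gene's strand with each GCGTG, or CACGC where it lies on the opposite strand, in capitals. The windows are CYP1A1 (chr15:74725479-74725778, minus strand), CYP1A2 (chr15:74748595-74748894, plus strand), the first of the AHRR windows (chr5:321464-321763, plus strand) and the first of the TIPARP windows (chr3:156674340-156674639, plus strand).
CYP1A1: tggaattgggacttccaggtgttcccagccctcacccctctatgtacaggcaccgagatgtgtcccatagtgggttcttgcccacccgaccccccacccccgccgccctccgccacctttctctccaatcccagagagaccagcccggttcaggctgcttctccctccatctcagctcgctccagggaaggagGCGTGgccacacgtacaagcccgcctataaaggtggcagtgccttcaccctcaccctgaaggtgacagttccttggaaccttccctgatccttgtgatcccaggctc
CYP1A2: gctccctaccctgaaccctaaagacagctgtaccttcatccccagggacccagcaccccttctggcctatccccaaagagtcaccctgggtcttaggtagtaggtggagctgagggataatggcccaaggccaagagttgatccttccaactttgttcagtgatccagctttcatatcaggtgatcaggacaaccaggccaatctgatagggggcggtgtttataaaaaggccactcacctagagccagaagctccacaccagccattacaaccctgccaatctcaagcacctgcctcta
AHRR: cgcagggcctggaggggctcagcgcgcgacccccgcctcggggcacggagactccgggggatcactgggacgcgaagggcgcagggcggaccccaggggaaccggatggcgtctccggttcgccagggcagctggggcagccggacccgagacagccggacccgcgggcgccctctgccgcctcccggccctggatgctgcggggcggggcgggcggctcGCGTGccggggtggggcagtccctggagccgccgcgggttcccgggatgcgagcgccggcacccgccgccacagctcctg
TIPARP: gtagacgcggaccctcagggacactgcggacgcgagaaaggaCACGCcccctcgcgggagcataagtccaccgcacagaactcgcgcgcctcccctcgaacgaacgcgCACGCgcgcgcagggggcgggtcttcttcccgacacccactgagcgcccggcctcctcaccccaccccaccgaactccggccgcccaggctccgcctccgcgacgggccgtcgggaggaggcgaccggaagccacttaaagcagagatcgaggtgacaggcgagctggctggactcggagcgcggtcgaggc
The set of promoter windows used here held 9 for 6 of the 8 genes, all but CYP1B1 and ALDH3A1. The motif GCGTG was searched on both strands, and in all promoter windows of the reference 36.5% held it. It stood in 1 place in the CYP1A1 window, with its first base at position -57 from the start site, and was not found in the CYP1A2 and ARNT windows. The first AHRR window held it at -30, there also as the longer TNGCGTG, which 5.51% of all windows held. The second AHRR window held it at -247 and -42, the AHR window at 37 after the start, and the first TIPARP window at -208 and -142 on the opposite strand. The other 2 TIPARP windows held no match. A match of letters is a description of the window and not a measured binding site. Sequence outside the windows was not searched, so sites further from the start would be missed.

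Total counts per library lay between 20.21 and 36.41 M with a median of 25.765 M, so that 1 count was worth 0.0267 to 0.0479 counts per 1e6 counts of the library (CPM), and 16517 genes had enough counts for a test. The HepG2 markers ALB, AFP, APOA1, TTR and HNF4A were all high, with medians over the libraries from 69.3 CPM for TTR to 7179 CPM for ALB. Of 7 markers of leukocytes, endothelial cells and fibroblasts, PTPRC and CD3E had 0 counts in all 60 libraries, while CD68 (32.2 to 61.6 CPM), PDGFRB (7.89 to 22.1 CPM), PECAM1, VWF and COL1A1 were detected. The library codes fall into 5 sets, of which the vehicle and wortmannin are each 1, so that every comparison with the vehicle crosses sets and set and treatment cannot be told apart there. The high, medium and low doses of an extract share a set. Vehicle replicate 1 stood apart from vehicle replicates 2 and 3 in its dependence of counts on gene GC content (slopes of -1.11, 0.105 and 0.167), as did replicate 2 of low-dose Schisandrae (-0.755) and replicate 1 of low-dose Liriopis (-1.6) from their own groups. The fourth lowest slope was that of replicate 3 of medium-dose Aucklandiae (-0.716), whose replicate 1 was close to it (-0.596) and replicate 2 was not (-0.109). Calls of named genes and counts of calls that use these 4 libraries are given with and without them.

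CYP1A2 and CYP1B1 were too low to measure in these cells. CYP1A2 (ENSG00000140505, chromosome 15, 74748844 to 74756202), the P450 that oxidises caffeine and aromatic amines in adult liver, had 53 counts in the whole series, with 29 of 60 libraries at 0 and no library above 6. CYP1B1 (ENSG00000138061, chromosome 2, 38066973 to 38109902), a P450 of tissues outside the liver, had 104 counts, with 13 libraries at 0 and no library above 7. Neither reached the minimum for a test. A count of 0 over the 3 libraries of a group allows up to 0.0315 to 0.0448 CPM, counting error only, and CYP1A2 was at 0 in 6 groups while CYP1B1 was at 0 in medium-dose Liriopis.

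The high dose of Polygalae held 11 of the 53 CYP1A2 counts, as 3, 6 and 2 counts in its libraries, against 1 count in 1 of the 3 vehicle libraries. This is 8.89 times the vehicle after scaling for depth, with an exact 95% interval from 1.29 to 383 that covers counting error only, and the group was singled out after its counts were seen. Against low-dose Polygalae, with 3 counts, the ratio was 3.74 (exact 95% interval 0.989 to 20.9). Set beside CYP1A1 in the same libraries, CYP1A2 had 2.14 counts per 1000 CYP1A1 counts in high-dose Polygalae (exact 95% interval 1.07 to 3.82) and 3.12 in the other 57 libraries (2.24 to 4.21). The intervals overlap. Whether some of these counts are reads that CYP1A1 and CYP1A2 share was not tested. CYP1B1 had 5 counts in high-dose Polygalae and 5 in the vehicle, and its highest sum was 11 in low-dose Polygalae. CYP1B1 overlaps RMDN2 and CYP1B1-AS1 on the opposite strand and RMDN2-AS1 on its own, so its few counts are uncertain as well.

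**Figure D1:**
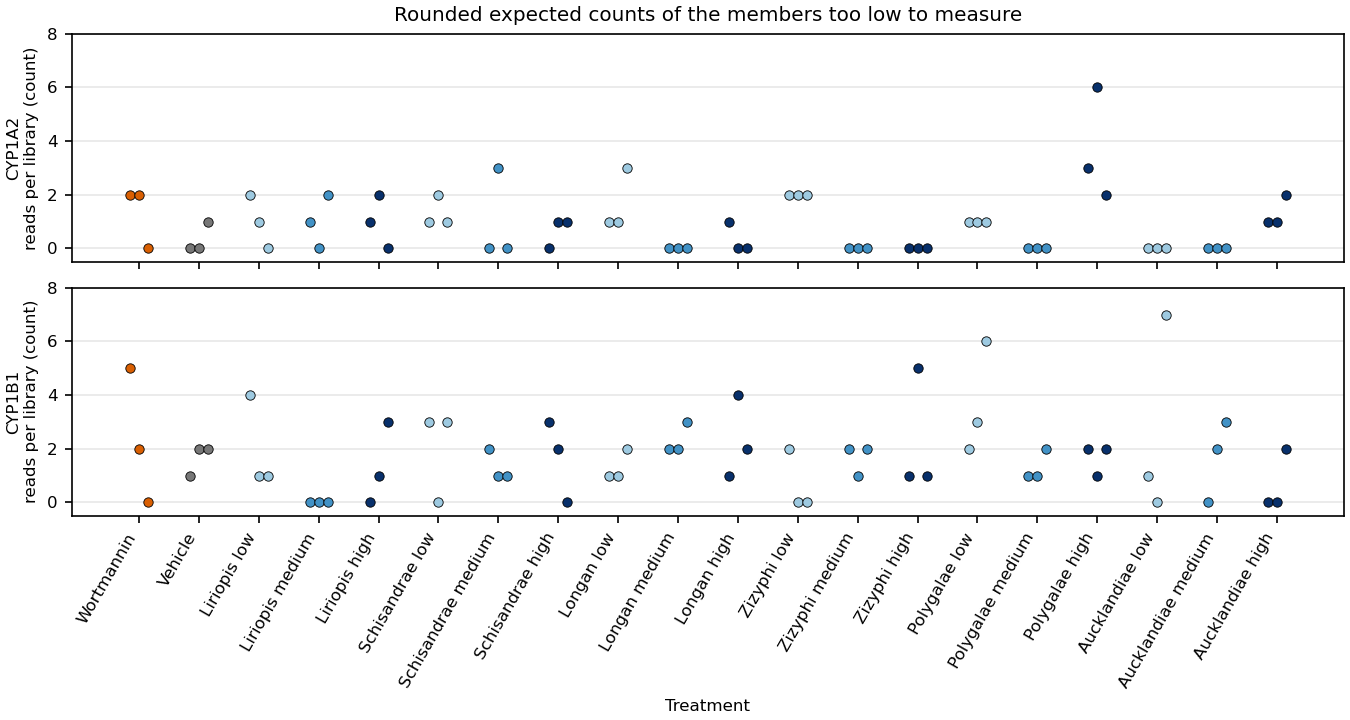
Rounded expected counts of CYP1A2 (top) and CYP1B1 (bottom) in each of the 60 libraries, by treatment, with 1 point per library. No library exceeded 6 counts of CYP1A2 or 7 counts of CYP1B1, and high-dose Polygalae held 11 of the 53 CYP1A2 counts.

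The other 6 genes could be tested. Levels between genes were compared per kilobase of annotated exon. In the vehicle ARNT stood at 5.84 ± 0.185 CPM per kb, AHR at 5.08 ± 0.137, TIPARP at 2.88 ± 0.0229 and CYP1A1 at 2.10 ± 0.0129 (SD, n = 3 each). ALDH3A1 at 0.151 ± 0.0366 CPM per kb and AHRR at 0.123 ± 0.0343 CPM per kb were more than an order of magnitude lower and overlapped each other. AHRR had 12 to 46 counts per library and ALDH3A1 8 to 35. In high-dose Polygalae the CYP1A1 level reached 19.5 CPM per kb in its highest library, above every AHR and ARNT library of the series, which peaked at 6.54 and 6.20 CPM per kb.

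Over the 19 comparisons with the vehicle, 15 of the 114 tests of these 6 genes passed an adjusted p of 0.05 in edgeR's quasi-likelihood test (13.2%), 11 higher and 4 lower, where 7.61% of all tests over all genes did (3.98% higher and 3.62% lower). CYP1A1 made 6 of the 15 calls, ARNT 4, AHR and TIPARP 2 each and AHRR 1. Without vehicle replicate 1 or without vehicle replicate 2, 9 tests passed, and without the 4 libraries of low GC slope 10, among them the 6 of CYP1A1 in each case. Shares of all genes, here and below, are those of the main fit. They were not taken under other settings, so counts there have no background of their own. Between high and low dose, 5 of 36 tests passed (13.9%, against 4.86% of all genes), 4 of them CYP1A1 and 1 AHR. The AHR call was lost without the 4 libraries of low GC slope. Between medium and low dose 2 of 36 passed (5.56%, against 0.205% of all genes), both CYP1A1, and the call in Schisandrae was lost without those libraries. In the wortmannin group alone 4 of 6 genes passed, all higher, while 32.6% of all genes were called there. Without the 4 libraries of low GC slope 2 of 6 passed in wortmannin, CYP1A1 and AHR. The labels do not say whether replicates were separate cultures, so the p-values rest on the variation among these libraries alone, and that may be technical. All comparisons with the vehicle share its 3 libraries. Of the 19 treatments, 14 did not overlap the vehicle, lying above or below it, in ARNT, 13 in CYP1A1, 11 in TIPARP, 5 in AHR and 2 in ALDH3A1. Most of these had no call outside CYP1A1. For CYP1A1 they include medium-dose Liriopis and low- and medium-dose Longan, which lay below the vehicle. How many of all genes lack such overlap was not counted, so these counts cannot be set against a background.

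**Figure D2:**
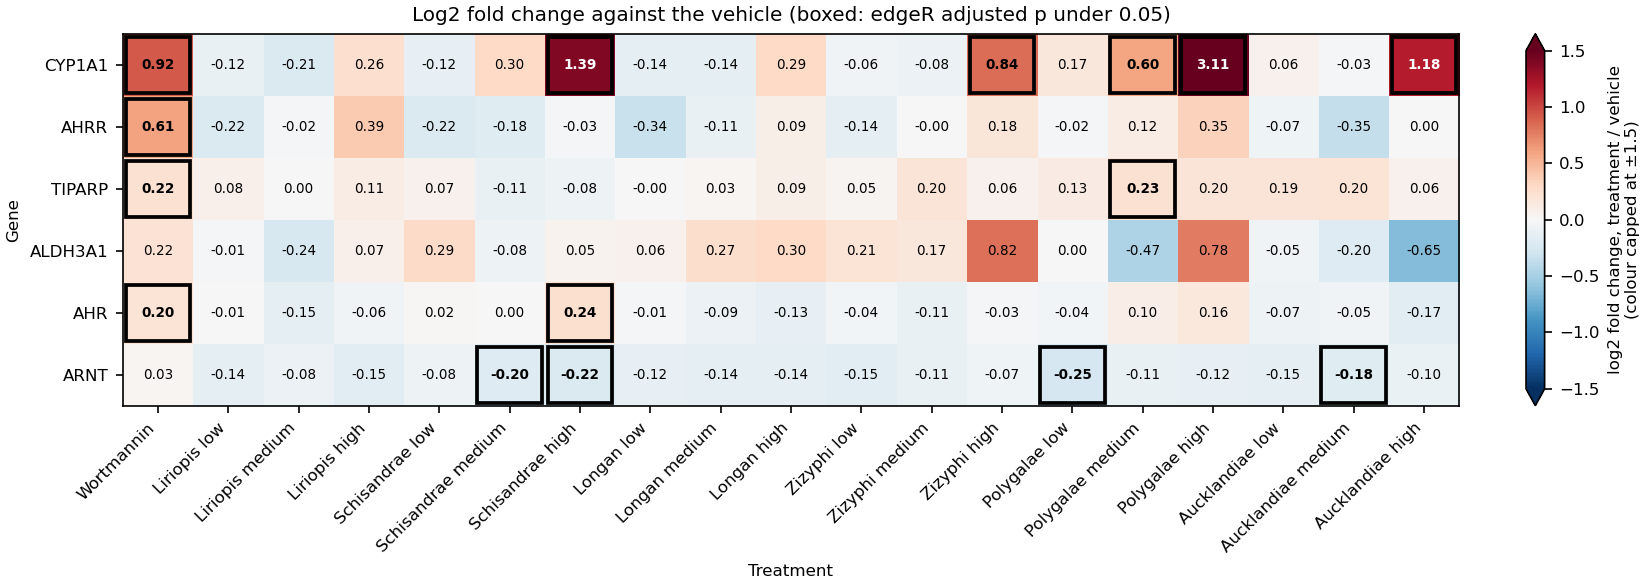
Log2 fold change of the 6 tested genes (down the page) in each treatment over the vehicle (across), written in each cell and coloured from blue (lower) to red (higher), with calls boxed. The 6 boxes of CYP1A1 run from 0.60 in medium-dose Polygalae to 3.11 in high-dose Polygalae, that of AHRR in wortmannin is 0.61, and the boxes of ARNT are all below 0.

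CYP1A1 (ENSG00000140465, chromosome 15, 74719542 to 74725610) rose in 6 of 19 treatments, most in the high dose of Polygalae. Its levels were 7.15, 7.20 and 7.24 CPM in the vehicle, 8.13, 7.64 and 8.60 CPM in low-dose Polygalae, 10.9, 10.2 and 11.6 CPM in medium-dose Polygalae, and 58.7, 67.0 and 60.5 CPM in high-dose Polygalae. All 4 groups stood apart from one another in this order, and the 3 high-dose libraries were the highest of all 60, the next being 19.65 CPM. Against the vehicle the log2 fold change was 3.11 ± 0.09 (SE) at the high dose, 8.62-fold, with an edgeR adjusted p of 2.6e-30, and 0.60 ± 0.10 at the medium dose (adjusted p = 2.7e-05). At the low dose it was 0.17 and did not pass. Of all genes, 20.1% were called at the high and 11.7% at the medium dose. By p-value CYP1A1 ranked 1 of 16517 genes in high-dose Polygalae, both against the vehicle and against the low dose. In bulk RNA, a higher level in each cell and more cells that express the gene cannot be told apart.

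High-dose Schisandrae came next. CYP1A1 stood at 7.20 ± 0.0444 CPM in the vehicle, 6.62 ± 1.22 CPM at the low dose, 8.83 ± 0.315 CPM at the medium dose and 18.9 ± 0.912 CPM at the high dose (SD, n = 3 each). The high-dose libraries (19.2, 19.6 and 17.9 CPM) lay above every library of the lower doses, and the log2 fold change against the vehicle was 1.39 ± 0.09 (edgeR adjusted p = 3.2e-16). Aucklandiae gave no such step before its top dose. Its libraries read 7.20, 7.66 and 7.69 CPM at the low, 6.80, 7.84 and 6.54 CPM at the medium and 13.9, 18.1 and 17.0 CPM at the high dose, which was 1.18 ± 0.09 over the vehicle on the log2 scale (adjusted p = 5.6e-14). Zizyphi followed the same form with 6.94 ± 0.473, 6.79 ± 0.786 and 12.8 ± 1.15 CPM at rising dose, and 0.84 ± 0.10 over the vehicle (adjusted p = 3.4e-07). There CYP1A1 again ranked 1 of all genes by p-value, while 4.42% of all genes were called, against 15.7% in high-dose Schisandrae and 26.1% in high-dose Aucklandiae. Wortmannin libraries held 14.0, 13.5 and 13.5 CPM, 1.90-fold the vehicle (log2 fold change 0.92 ± 0.10, adjusted p = 1.2e-10).

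Without the 4 libraries of low GC slope, which include vehicle replicate 1, these 6 log2 fold changes were 3.10, 0.59, 1.39, 1.17, 0.83 and 0.92 in the order given, and all 6 passed under each of the 14 other settings. The spread of CYP1A1 in the vehicle was the smallest of the 20 groups. The levels of high-dose Longan (8.82 ± 0.457 CPM), medium-dose Schisandrae and high-dose Liriopis (8.60 ± 0.744 CPM) lay above all vehicle libraries but did not pass, with log2 fold changes of 0.29, 0.30 and 0.26 and adjusted p of 0.11, 0.091 and 0.29. In the order of the group means, high-dose Polygalae stood apart from high-dose Schisandrae, and medium-dose Polygalae from medium-dose Schisandrae. No other pair of neighbours in that order was free of overlap. The 6 low doses and the medium doses of the other 4 extracts spanned means from 6.22 to 8.12 CPM.

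**Figure D3:**
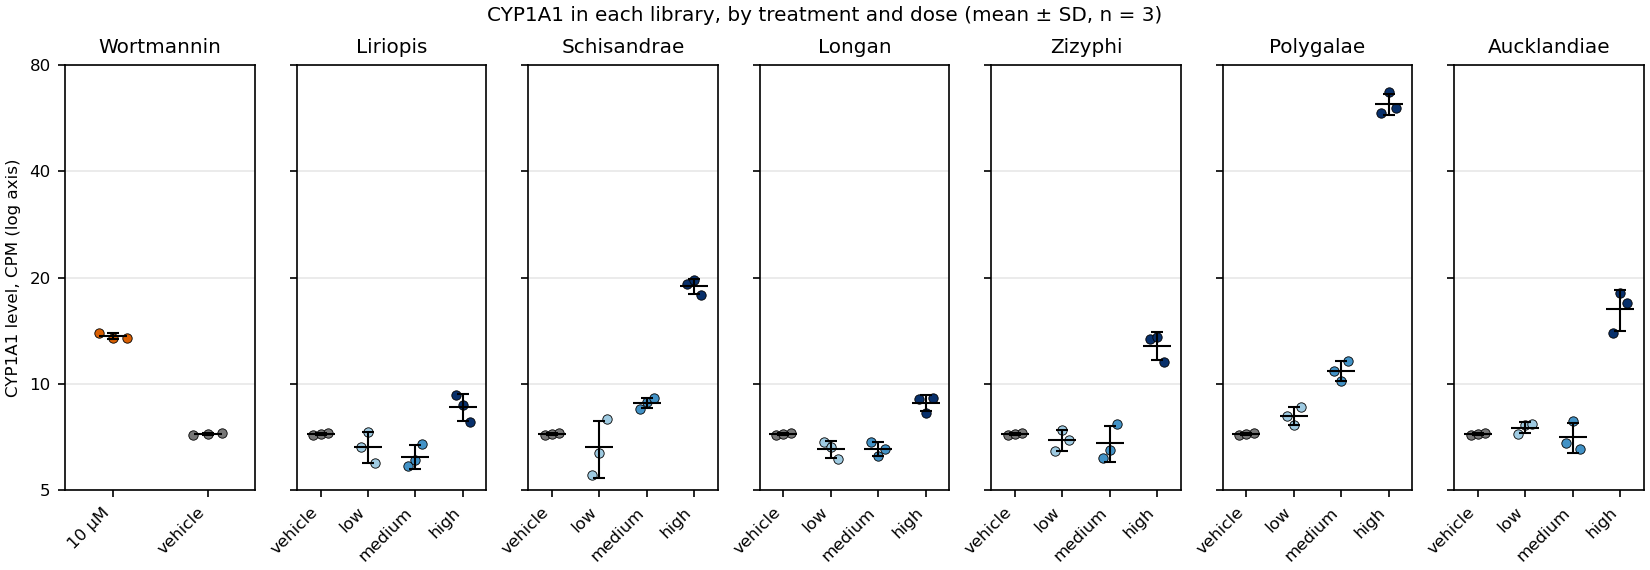
CYP1A1 level in CPM on a log axis, with 1 panel per treatment, a point for each library and bars for the mean ± SD of 3 libraries; the vehicle is repeated in each panel. High-dose Polygalae (58.7 to 67.0 CPM) lies above all others, and in 5 of the 6 extracts the low and medium doses stay near the vehicle's 7.20 CPM or rise to at most 9.12 CPM.

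High and low doses of an extract share a code set, so their comparison does not depend on the vehicle. CYP1A1 was higher at the high dose in all 6 extracts, and in each of them all 3 high-dose libraries lay above all 3 low-dose libraries. The doses also stood apart in 2 extracts each for AHR and ALDH3A1, and in 1 each for AHRR, TIPARP and ARNT. The share of all genes that stand apart in this way was not counted. The log2 fold change passed in Polygalae (2.94 ± 0.09, 95% interval 2.76 to 3.11, edgeR adjusted p = 6.2e-30), Schisandrae (1.51 ± 0.09, adjusted p = 3.1e-17), Aucklandiae (1.12 ± 0.09, adjusted p = 2.5e-13) and Zizyphi (0.90 ± 0.09, adjusted p = 2.3e-08). Of all genes, 3.93%, 9.99%, 14.9% and 0.351% were called in these 4 comparisons. Without the libraries of low GC slope the Schisandrae value was 1.49 and still passed. Longan and Liriopis had 0.44 (95% interval 0.24 to 0.63, adjusted p = 0.17) and 0.37 (95% interval 0.17 to 0.58, adjusted p = 0.79). By p-value CYP1A1 ranked 4 and 7 of all genes in these 2 comparisons. The Liriopis value was 0.38 without the libraries of low GC slope and did not pass.

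At the medium dose CYP1A1 exceeded the low dose in Polygalae (0.42 ± 0.09, edgeR adjusted p = 0.02) and in Schisandrae (0.42 ± 0.10, adjusted p = 0.048), where 0.63% and 0.254% of all genes were called, and neither call was stable. The Polygalae call was lost without low-dose replicate 1 (0.42) or 2 (0.39) and without medium-dose replicate 2 (0.47) or 3 (0.38). The Schisandrae call was lost without low-dose replicate 1 (0.31) or 2 (0.39), without each medium-dose replicate in turn (0.40 to 0.44), and without the libraries of low GC slope (0.39). In the other 4 extracts the difference between medium and low dose lay between -0.094 and 0.0057 on the log2 scale.

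**Figure D4:**
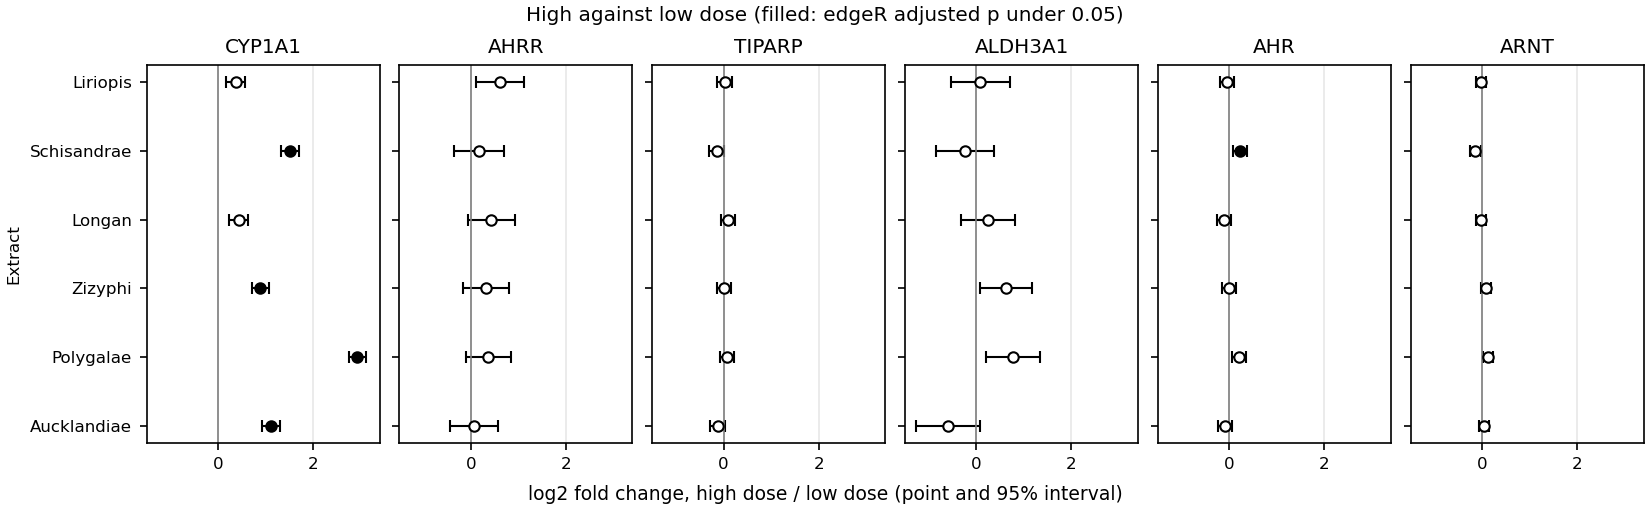
Log2 fold change of the high over the low dose for each tested gene (panels) and extract (down the page), with 95% intervals; filled points passed the test. The intervals of CYP1A1 lie above 0 in all 6 extracts, up to 2.94 in Polygalae, while most intervals of the other genes include 0.

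The extracts of one code set were also set against each other. At the same nominal dose, high-dose Schisandrae exceeded high-dose Liriopis in CYP1A1 by 1.14 ± 0.09 on the log2 scale (18.9 against 8.60 CPM, edgeR adjusted p = 1.5e-13). High-dose Zizyphi exceeded high-dose Longan by 0.54 ± 0.09 (12.8 against 8.82 CPM, adjusted p = 0.0015). That second call was lost without Zizyphi replicate 2 (0.49), without Longan replicate 2 (0.50) and in a fit to these 6 libraries alone (0.54). Of 12 tests of this kind 3 passed (25%, against 5.48% of all genes), the third being AHR. The share of all genes called was 10.9% between Schisandrae and Liriopis and 0.0424% between Zizyphi and Longan.

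The change from low to high dose differed between extracts by an interaction test. For CYP1A1 it was larger in Schisandrae than in Liriopis by 1.14 ± 0.14 (edgeR adjusted p = 4.6e-08), and smaller in Aucklandiae than in Polygalae by a log2 difference of -1.82 ± 0.13 (adjusted p = 8e-15), over the same ratio of doses although the doses themselves differ. Between Zizyphi and Longan the difference of changes was 0.46 (95% interval 0.19 to 0.73, adjusted p = 0.86). Of the 18 interaction tests 3 passed (16.7%, against 3.93% of all genes, with 4.97% between Schisandrae and Liriopis and 6.82% between Aucklandiae and Polygalae). Without the libraries of low GC slope the first was 1.10 and passed.

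The receptor itself moved little. AHR (ENSG00000106546, chromosome 7, 16916359 to 17346152), which in the annotation overlaps 5 other genes, ranged over the group means from 36.5 CPM in high-dose Aucklandiae to 48.5 CPM in high-dose Schisandrae, 1.33 times. High-dose Schisandrae libraries held 52.8, 46.4 and 46.3 CPM, against 41.6, 39.7 and 41.7 CPM in the vehicle. The groups did not overlap, and AHR rose by 0.24 ± 0.07 on the log2 scale (edgeR adjusted p = 0.016). The same high dose exceeded low-dose Schisandrae by 0.22 ± 0.07 (adjusted p = 0.043) and high-dose Liriopis by 0.30 ± 0.07 (adjusted p = 0.003). Each of these 3 calls was lost without high-dose Schisandrae replicate 1, the highest AHR library of the series, at 0.18, 0.15 and 0.23. The first was also lost without vehicle replicate 2 (0.22), and passed without the libraries of low GC slope (0.25). The second was also lost without low-dose Schisandrae replicate 2 (0.22) or 3 (0.17) and without the libraries of low GC slope (0.22).

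Wortmannin libraries held 44.7, 48.6 and 48.4 CPM of AHR, all above the vehicle, with a log2 fold change of 0.20 ± 0.07 (edgeR adjusted p = 0.026). This call was lost without any 1 of the 3 vehicle libraries (0.18 to 0.21) or without wortmannin replicate 2 or 3 (0.18 and 0.19), and was kept without the 4 libraries of low GC slope (0.21). In high-dose Polygalae, where CYP1A1 was highest, AHR was at 48.2, 44.4 and 44.7 CPM, above every vehicle library, and its log2 fold change of 0.16 (95% interval 0.01 to 0.31, adjusted p = 0.12) did not pass. In high-dose Aucklandiae the AHR libraries (35.9, 35.2 and 38.4 CPM) lay below every vehicle library without passing the test, while CYP1A1 had risen there.

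ARNT (ENSG00000143437, chromosome 1, 150809705 to 150876768), the constitutive partner that AHR shares with the hypoxia-inducible factors, stood at 37.6, 37.1 and 39.4 CPM in the vehicle and lower in the mean of all 18 extract groups. It fell in 4 of them by edgeR's test. In low-dose Polygalae (34.6, 29.9 and 31.5 CPM) the log2 fold change was -0.25 ± 0.05 (adjusted p = 0.00075), and in high-dose Schisandrae (31.4, 33.8 and 32.5 CPM) it was -0.22 ± 0.05 (adjusted p = 0.0023). Of all genes, 15.6% and 15.7% were called there. Both ARNT calls passed in all 14 other settings, with -0.26 and -0.23 without the libraries of low GC slope. The falls in medium-dose Schisandrae (-0.20, adjusted p = 0.031) and medium-dose Aucklandiae (-0.18, adjusted p = 0.038), where 2.98% and 5.52% of all genes were called, were lost without the libraries of low GC slope (-0.21 and -0.16). Vehicle replicate 1 or 3 left out ended both of these calls as well (-0.21 and -0.17 for Schisandrae, -0.19 and -0.15 for Aucklandiae). So did medium-dose replicate 2 or 3 of the extract (-0.19 and -0.19 for Schisandrae, -0.16 and -0.15 for Aucklandiae), and for Aucklandiae also vehicle replicate 2 (-0.19).

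The mean of the 6 low doses gave ARNT -0.15 ± 0.04 against the vehicle (edgeR adjusted p = 0.018), 1 call among the 6 genes where 6.91% of all genes were called, and it was lost without vehicle replicate 1 (-0.16) or 3 (-0.12) and without the libraries of low GC slope (-0.16). Between doses of 1 extract ARNT passed no test, with high-to-low differences between -0.14 and 0.13. The ARNT calls thus all came from comparisons with the vehicle, which cross code sets, and no comparison within a set passed. Wortmannin, in its own set, held 37.5, 38.4 and 40.4 CPM of ARNT.

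TIPARP (ENSG00000163659, chromosome 3, 156673235 to 156706770) was the steadiest of the target genes, with group means from 13.5 CPM in medium-dose Schisandrae to 17.0 CPM in medium-dose Polygalae. It passed in wortmannin (16.3, 16.7 and 17.8 CPM, against 14.6, 14.4 and 14.6 CPM in the vehicle), with a log2 fold change of 0.22 ± 0.08 (edgeR adjusted p = 0.024). It also passed in medium-dose Polygalae (17.8, 15.8 and 17.5 CPM), with 0.23 ± 0.08 (adjusted p = 0.048). Both calls were lost without any 1 vehicle library (0.22 each in wortmannin, 0.22 to 0.23 in Polygalae) and without the libraries of low GC slope (0.22 and 0.23). The first was lost too without wortmannin replicate 3 (0.19), and the second without medium-dose Polygalae replicate 1 (0.19) or 3 (0.20). In high-dose Polygalae TIPARP held 16.2, 16.8 and 17.1 CPM, all above the vehicle, and the log2 fold change of 0.20 (95% interval 0.04 to 0.36, adjusted p = 0.064) did not pass. Between high and low doses its differences lay between -0.14 and 0.096 and none passed. TIPARP-AS1 lies on the opposite strand, and the strand setting of the counting is not given in the sources used here.

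AHRR (ENSG00000063438, chromosome 5, 304176 to 438291) was measured from few reads, with 22, 37 and 46 counts in wortmannin, against 21, 16 and 26 in the vehicle. These are 0.998, 1.58 and 1.71 CPM, against 0.839, 0.753 and 1.25 CPM, and the groups overlap. The log2 fold change of 0.61 ± 0.24 passed narrowly (edgeR adjusted p = 0.049). It did not pass without vehicle replicate 1 (0.52) or 2 (0.48), without wortmannin replicate 2 (0.54) or 3 (0.45), or without the libraries of low GC slope (0.52). High-dose Polygalae held 1.40, 1.24 and 0.918 CPM, with a log2 fold change of 0.35 against the vehicle (95% interval -0.14 to 0.84, adjusted p = 0.34). In all 6 extracts the high dose had more AHRR than the low dose, by 0.071 to 0.61 on the log2 scale, and none of the 6 differences passed. The AHRR difference in Schisandrae was 0.0061 without the libraries of low GC slope. AHRR overlaps PDCD6 on the same strand, so its counts are uncertain.

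ALDH3A1 (ENSG00000108602, chromosome 17, 19737984 to 19748943), an aldehyde dehydrogenase of cornea and tumour cells, overlaps a gene on the opposite strand in the annotation. It had its highest group means in high-dose Zizyphi (1.22, 1.01 and 0.942 CPM) and high-dose Polygalae (0.749, 0.853 and 1.53 CPM), against 0.639, 0.706 and 0.432 CPM in the vehicle. Both groups lay above every vehicle library. The log2 fold changes of 0.82 (95% interval 0.24 to 1.41, edgeR adjusted p = 0.096) and 0.78 (95% interval 0.19 to 1.36, adjusted p = 0.05) did not pass. Leaving out high-dose Polygalae replicate 1 or 2 brought the second past the threshold, at 0.96 and 0.88. Both of these fits keep replicate 3, the highest library of that group at 1.53 CPM. Its lowest group was high-dose Aucklandiae, with 8, 8 and 13 counts (0.301, 0.343 and 0.486 CPM). The low-to-high change was smaller in Aucklandiae than in Polygalae by a log2 difference of -1.37 ± 0.43 (adjusted p = 0.044), from changes of -0.59 and 0.77 that did not pass on their own. That difference was lost without high-dose Polygalae replicate 3 (-1.02) or low-dose Polygalae replicate 2 (-1.13). It was lost as well without high-dose Aucklandiae replicate 1 (-1.23) or 2 (-1.31) and without low-dose Aucklandiae replicate 1 (-1.17) or 3 (-1.38).

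**Figure D5:**
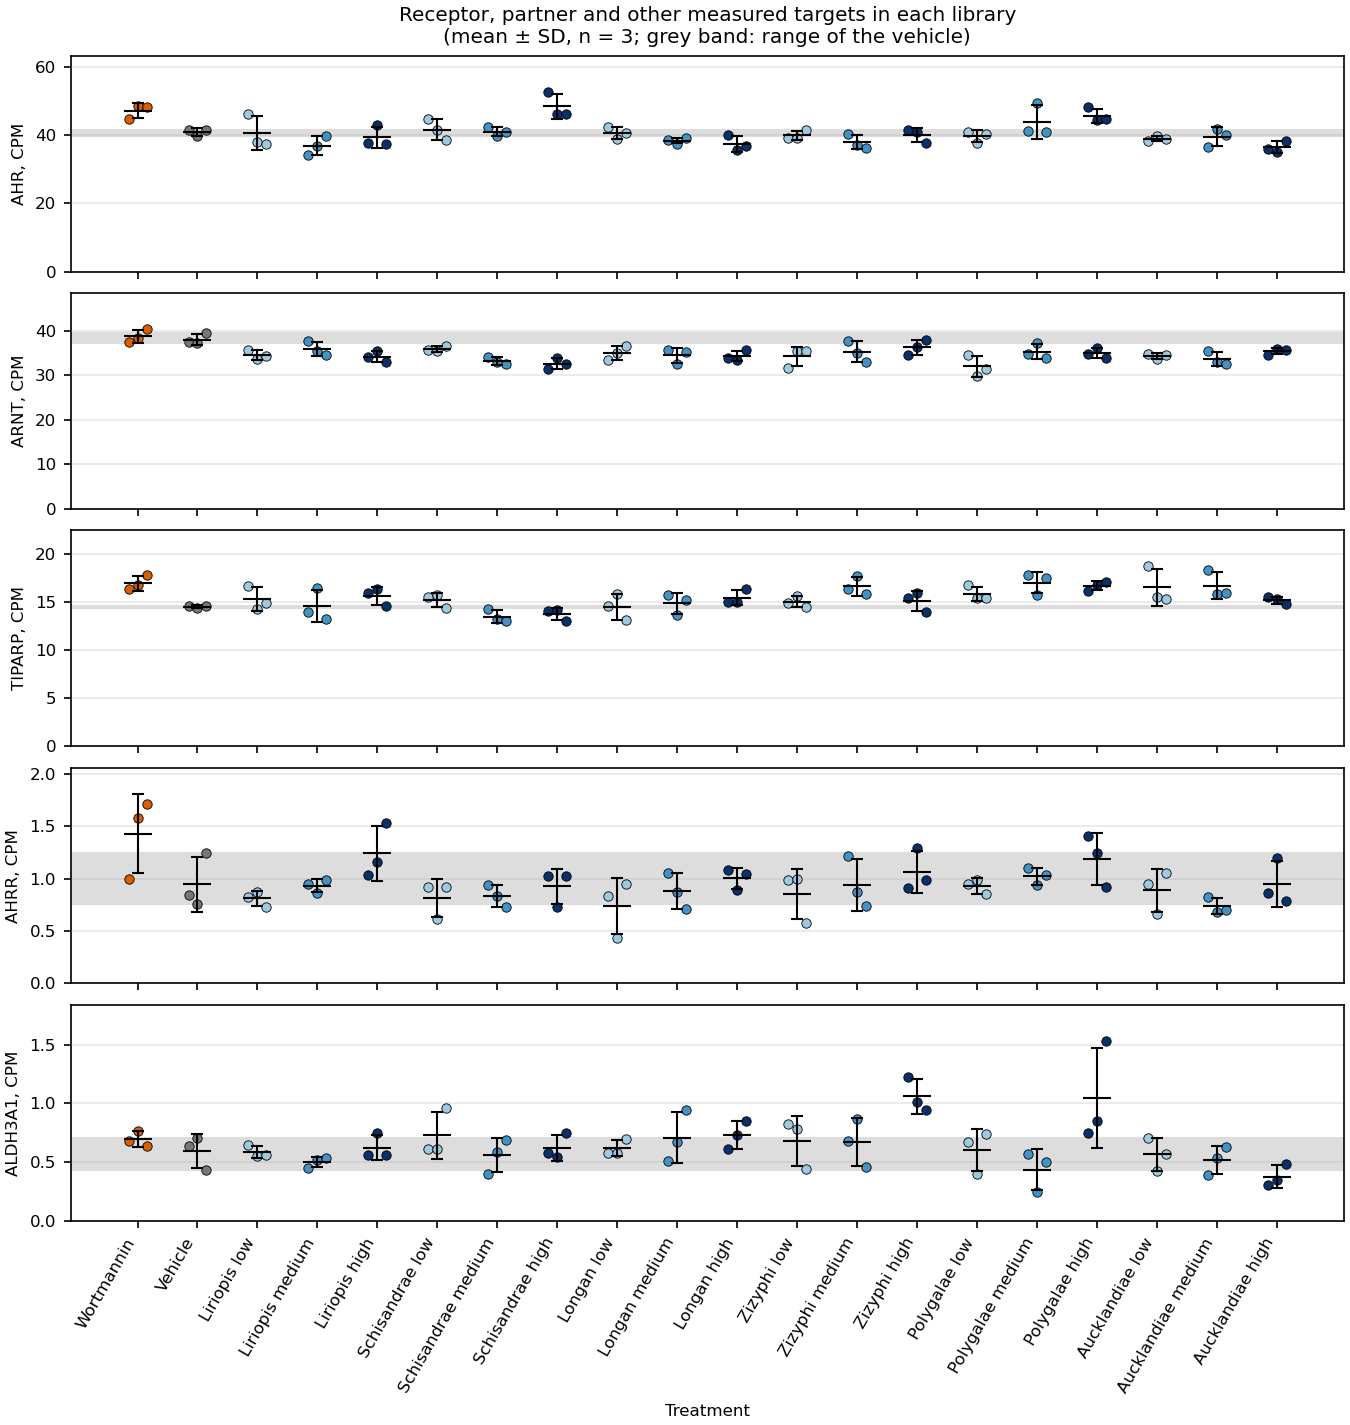
Levels in CPM of AHR, ARNT, TIPARP, AHRR and ALDH3A1 in each library, with mean ± SD of 3 libraries, by treatment; the grey band is the range of the 3 vehicle libraries and each axis starts at 0. AHR, ARNT and TIPARP stay within narrow bands, AHR highest in high-dose Schisandrae (48.5 CPM), and ALDH3A1 is highest in high-dose Zizyphi and high-dose Polygalae.

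The genes around the receptor were read from lists of its complex, partners, coactivators, other known targets and supporting enzymes. Of 10 other targets 9 were tested, all but UGT1A6, and UGT1A1 shares exons with its sister genes, so its counts are uncertain. By edgeR's test 4 were higher and 2 lower in high-dose Aucklandiae than in the vehicle, with a median log2 fold change of 0.498. In high-dose Schisandrae 4 were higher and 1 lower (median 0.50). In high-dose Polygalae 4 were higher and none of the 9 lower, with a median of 0.136. The share of all genes called was 26.1%, 15.7% and 20.1% in these comparisons, and the median of all tested genes was no further than 0.00955 from 0 in any of the 37 comparisons. In wortmannin none of the 9 was higher and 3 were lower, where 32.6% of all genes were called (16.2% lower). In high-dose Zizyphi none was higher and 1 was lower (median -0.00032), where 4.42% of all genes were called. High-dose Longan had 1 higher and none lower (median -0.0672, 1.76% of all genes). High-dose Liriopis had no call (median -0.126, 0.0484% of all genes). Without the 4 libraries of low GC slope the counts were 3 higher and 2 lower in high-dose Aucklandiae, 4 higher in high-dose Schisandrae, 3 higher in high-dose Polygalae and 3 lower in wortmannin. High-dose Longan then kept 1 higher, and high-dose Zizyphi and Liriopis had no call.

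NQO1, a quinone reductase that both AHR and the oxidant sensor NRF2 can induce, was highest in Aucklandiae and not in Polygalae. It stood at 340.4 ± 6.56 CPM in the vehicle, and at 449 ± 7.95, 561 ± 21.2 and 686 ± 9.45 CPM at the low, medium and high dose of Aucklandiae. In Polygalae it stood at 397 ± 15.6, 383 ± 24.1 and 497 ± 8.34 CPM at rising dose (SD, n = 3). The high-over-low change of NQO1 was 0.61 ± 0.04 in Aucklandiae (edgeR adjusted p = 3.7e-15) and 0.32 ± 0.04 in Polygalae (adjusted p = 9.2e-07), and their difference of 0.29 ± 0.06 passed (adjusted p = 0.0014). This is the opposite sign to CYP1A1, whose difference between the same changes was -1.82.

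CYP2S1, another P450 known as an AHR target, also rose in Aucklandiae. It averaged 11.8 ± 0.524 CPM in high-dose Aucklandiae and 11.7 ± 1.52 CPM in high-dose Schisandrae, against 7.67 ± 0.527 CPM in the vehicle. High-dose Polygalae stood at 7.69 ± 0.430 CPM. The high-over-low change of CYP2S1 was 0.61 in Aucklandiae (edgeR adjusted p = 1.1e-05), 0.68 in Schisandrae (2.7e-06) and -0.032 in Polygalae (95% interval -0.24 to 0.18, adjusted p = 0.94). The difference between Aucklandiae and Polygalae was 0.64 ± 0.15 and passed (adjusted p = 0.0023). IER3, an immediate early gene, stood at 101 ± 23.5 CPM in high-dose Schisandrae, against 47.4 ± 8.61 CPM in low-dose Schisandrae, a log2 fold change of 1.09 ± 0.18 (adjusted p = 9.7e-06). Without the libraries of low GC slope the Schisandrae changes were 0.59 for CYP2S1 and 1.10 for IER3, and both passed.

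In the cytosolic complex, HSP90AB1 and HSP90AA1, the chaperones that hold AHR in its ligand-binding form, fell in high-dose Polygalae against its low dose by 0.28 ± 0.04 and 0.30 ± 0.06 on the log2 scale (edgeR adjusted p = 4.4e-07 and 0.00092). They also fell in wortmannin, by 0.26 and 0.51 against the vehicle (adjusted p = 1.8e-07 and 2.8e-09), and by 0.26 and 0.48 without the libraries of low GC slope, where both passed. Of the 4 genes of the complex, 2 were also lower in high-dose Aucklandiae than in the vehicle, where 26.1% of all genes were called. That count was the same without the libraries of low GC slope. Among the other partner proteins of this class, EPAS1, the hypoxia-inducible factor 2 alpha, averaged 319 ± 5.05 CPM in high-dose Aucklandiae, against 225 ± 9.59 CPM at the low dose (0.51 ± 0.04, adjusted p = 1e-12). ARNT2, a relative of ARNT, fell there by 0.40 ± 0.13 (adjusted p = 0.022), and NPAS2 had -0.13 (adjusted p = 0.13).

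Of the 5 coactivators, NCOA3 and NCOA1 fell in high-dose Schisandrae against its low dose by 0.23 ± 0.05 and 0.21 ± 0.06 (edgeR adjusted p = 0.00097 and 0.021). Without the libraries of low GC slope NCOA3 had -0.21 and passed, and NCOA1 had -0.20 and did not (adjusted p = 0.055). NCOA2 had -0.14 in the same comparison (adjusted p = 0.16) and 0.14 between the Polygalae doses (adjusted p = 0.21). Against the vehicle all 5 were lower in high-dose Aucklandiae, where 26.1% of all genes were called, in low-dose Aucklandiae (4.45% of all genes) and in the mean of the 6 low doses (6.91% of all genes). Fewer were lower in low-dose Polygalae (4), high-dose Polygalae, high- and medium-dose Schisandrae and wortmannin (3 each), medium-dose Aucklandiae (2) and high-dose Zizyphi (1). Of all genes, 15.6%, 20.1%, 15.7%, 2.98%, 32.6%, 5.52% and 4.42% were called there in that order. The median log2 fold change of the 5 was negative in every treatment, from -0.31 in low-dose Polygalae to -0.0913 in high-dose Liriopis. Between high- and low-dose Aucklandiae the median of the 5 was -0.0496 on the log2 scale. Without the libraries of low GC slope 4 of the 5 were lower in high-dose Aucklandiae, 1 of 5 in low-dose Aucklandiae, and the calls for the mean of the low doses were lost (median log2 fold change -0.162). Low-dose Polygalae then had 4 lower, high-dose Schisandrae 3, high-dose Polygalae and wortmannin 2 each and medium-dose Schisandrae 1. The calls in medium-dose Aucklandiae and high-dose Zizyphi were lost. The share of all genes called was not taken in that fit. Of 6 enzymes of the kynurenine route, which makes AHR ligands from tryptophan, AFMID and KYNU alone were tested, and TDO2 and IDO1 had 2 counts and 1 count in the whole series. AFMID fell by 0.16 ± 0.05 between the Aucklandiae doses (adjusted p = 0.01), and KYNU had 0.17 between the Polygalae doses (adjusted p = 0.2). Among 4 genes that support P450 enzymes, ALAS1, the first enzyme of haem synthesis, rose by 0.79 ± 0.05 in high- against low-dose Aucklandiae (adjusted p = 2.3e-17). HMOX1, which degrades haem, rose there by 1.02 ± 0.06 (adjusted p = 4.3e-17) and CYB5A, an electron donor, by 0.39 ± 0.08 (adjusted p = 0.00038).

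Over the 20 group means, the genes of at least 5 CPM whose log2(CPM + 1) followed CYP1A1 most closely were ZDHHC9 (Pearson r = 0.899), OSMR (0.845) and LINC00511 (0.843), out of 10626 genes. Without high-dose Polygalae and high-dose Schisandrae, r was 0.904, 0.807 and 0.296, so that the third rests on those groups. For AHR the closest were FNIP2 (0.872), NCOA7 (0.852) and LCOR (0.815), for ARNT FAM120B (0.880), NCOA1 (0.867) and MERTK (0.843), and for TIPARP ANKRD50 (0.804), PPP2R1B (0.776) and B4GALT4 (0.764). For AHRR they were PTP4A3 (0.823), KLHL42 (0.803) and VPS39 (0.790), and for ALDH3A1 DBNDD2 (0.761), NFKBIZ (0.700) and DMKN (0.687). These r fell as well without the groups furthest from each member's own median. They then lay between 0.559 (DMKN) and 0.781 (PTP4A3), with 0.769, 0.695 and 0.61 for the AHR list in the order given. These are descriptions of the same 60 libraries. Of the 8, CYP1A1, TIPARP, AHR and ARNT alone reached the 5 CPM needed to be listed, and none of them stood in the list of another. The other members could not appear in any list.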

How the data were processed

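RNA-seq was done on HepG2 cells in 60 libraries, 3 in each of 20 groups taken from the labels. Per the labels, RNA went into a directional mRNA kit and was read as 100 bp pairs. The authors deposited expected counts per gene, estimated read numbers that need not be whole (10.3% of values were not). Per the submitters' processing notes, the tools were RSEM 1.3.3, STAR 2.7.3a, Trim Galore 0.6.5 and FastQC 0.11.9, with GRCh38 as build. Annotation release and strand setting are not stated, so overlapping genes are uncertain.

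Expected counts were rounded. edgeR 4.0.16 (R 4.3.3) filtered genes by group (filterByExpr, 16517 of 60675 kept, the untested holding 0.0532% of counts), scaled by TMM (0.92 to 1.08) and fitted 1 quasi-likelihood model to all 60 libraries. Tests were 2-sided, with Benjamini-Hochberg adjustment over all tested genes at 0.05, in 37 comparisons. The CPM given are after TMM scaling. Symbols matched 56558 IDs, and coordinates are those of GENCODE 29. The step was checked on simulated counts. No replicates agreed within sampling noise.

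Members, lists and tests were chosen with earlier results of these data known. Named list genes are those with the smallest p between high and low doses, up to 3 a list, plus NQO1, and for each tested member the 3 genes of highest r over group means. 1 gene that this rule names is not reported here. Other settings were RLE scaling, no filter or a stricter one, replicate blocks, DESeq2 1.42.0, fits to the compared libraries alone and each library left out in turn. Leaving out the 4 libraries of lowest GC slope was chosen after seeing the data. Deviations of same-numbered libraries correlated above 0.1 in all 3 pairs for high against low Schisandrae (r = 0.21, 0.1 and 0.18) and Zizyphi (0.21, 0.42 and 0.11), and for medium against low Schisandrae (0.14, 0.11 and 0.14) and Aucklandiae (0.62, 0.46 and 0.12), and in no other comparison; this pairing comes from the data, since the labels say nothing of what a number shares.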

Additional observations from a re-analysis of the deposited data

Results flagged for a closer look

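A difference between extracts in their change from low to high dose stood out in 3 tests, each by the interaction test of edgeR. For CYP1A1 the change was larger in Schisandrae than in Liriopis by 1.14 on the log2 scale and smaller in Aucklandiae than in Polygalae by a difference of -1.82. For ALDH3A1 it was smaller in Aucklandiae than in Polygalae by a difference of -1.37, which rests on 8 to 35 counts per library and passed in 10 of 18 other settings with a value.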

How the results depend on the processing

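No direction was reversed among the results compared. The 6 CYP1A1 calls against the vehicle and the 4 between high and low dose passed in every other setting, with log2 fold changes of 3.04 to 3.13 in high-dose Polygalae against the vehicle. Calls against the vehicle numbered 15, and 9 to 16 with 1 library left out, where comparisons that do not use that library keep their calls; other settings gave 10 (no filter) to 17. The single call for the mean of the 6 low doses became 0 with no filter on low counts, with only the compared libraries and without the 4 libraries of low GC slope, and 0 to 1 with a library left out. The 2 calls between medium and low dose became 1 with RLE, 1 without the 4 libraries of low GC slope, 0 with only the compared libraries, and 1 to 2 with a library left out. DESeq2 gave 1 and no value for the other. High-to-low calls (5) became 4 to 5 with a library left out, and calls between extracts and interactions (3 each) 2 to 3. With the replicate block, calls against the vehicle numbered 16 over all libraries and 17 within code sets, and the counts of the other comparisons were unchanged (5, 2, 3, 3 and 1). CYP1A1 in high- against low-dose Longan passed at 0.44 with no filter (35717 genes). The stricter filter (13152 genes) left 4 of the 8 genes. The TIPARP call in medium-dose Polygalae was kept in 4 of 14 other settings and the AHRR call in wortmannin in 4 of 13. Both were lost with RLE, with no filter, with only the compared libraries and with DESeq2. No filter and only the compared libraries each ended the ARNT calls in medium-dose Schisandrae and Aucklandiae, the AHR call between Schisandrae doses and the ALDH3A1 interaction. The TIPARP call in wortmannin was lost with no filter. No group mean moved by over 1 SD under RLE (0 of 160). The cause of these shifts was not tested. Depth limits AHRR and ALDH3A1 most, and CYP1A2 and CYP1B1 could not be tested.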
